A study of Mus musculus with 12 samples.

Results

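The genes described here are direct targets of p53, the tumour suppressor that acts as a sequence-specific transcription factor. They were chosen by symbol, as every probe set that the platform annotation ties to exactly 1 gene among 10 listed symbols. Of these, 8 genes had 15 probe sets among the 45037 non-control probe sets of the array, namely Mdm2 (3), Pmaip1 (1), Plk2 (2), Eda2r (1), Ccng1 (3), Trp53inp1 (2), Sesn2 (2) and Phlda3 (1). The other 2 symbols, Trp53 itself and Bax, were not analysed here, so the level of p53 mRNA is not part of the results.

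The compared fractions were CD34+ keratinocytes, which carry the sialomucin CD34 that marks the follicle bulge in mice, and CD34- keratinocytes, both taken by magnetic sorting (MACS) from the skin of C57 DBA mice with no further treatment named. The labels name 3 isolations, with at least 6 mice pooled in each, and 2 Affymetrix mouse genome arrays for each RNA. The 6 arrays of a fraction therefore stand for 3 RNA samples, which the titles do not tie to array numbers, and p-values over 12 arrays are too small wherever arrays of the same RNA are alike. Values are log2 RMA expression values, a scale on which probe sets can be compared between arrays but not with each other. RMA gives no detection call, and the low end of the scale is marked by 3 Trpn control probe sets, at 2.31 to 2.95.

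In unstressed cells p53 is held at a low level by MDM2, a ubiquitin ligase whose gene p53 itself switches on, so that the pair forms a feedback loop. Stress such as DNA damage frees p53, which then binds response elements near its targets and raises genes of cell cycle arrest, cell death, repair and antioxidant defence. In epidermis the related factor p63 is the family member that basal keratinocytes depend on, and p53 is best known there for the response to ultraviolet light.

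The labels were checked first. Cd34 averaged 10.15 ± 0.55 in the CD34+ fraction and 3.23 ± 0.30 in the CD34- fraction (SD, n = 6), a log2 fold change of 6.92 (SE 0.23, limma adjusted p = 3.59e-09). Of 11 bulge stem cell markers 9 were higher and 0 lower in CD34+ cells, and of 10 general keratinocyte markers 6 were lower and 0 higher. The keratinocyte list shares Sfn, which was lower, and Perp, which did not pass, with the lists of p53 targets below. CD34+ arrays 1, 3 and 5 stood apart, with a spread over probe sets of 1.92 to 2.07 (SD), against 2.19 to 2.32 on the other 9 arrays. For Actb, the excess of the 3' over the 5' control signal, a sign of shortened RNA, was 3.95 to 5.65 in CD34+ and 1.82 to 3.24 in CD34- arrays. Members are also given without CD34+ arrays 1, 3 and 5. The Actb excess of those 3 arrays, 3.98 to 4.68, lay within that of CD34+ arrays 2, 4 and 6, 3.95 to 5.65. Leaving them out therefore keeps this difference between the fractions, and the part of RNA quality in any difference was not tested.

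Of the 15 probe sets, 7 were lower and 0 higher in CD34+ cells at a limma adjusted p under 0.05, and the 7 belong to 5 of the 8 genes. Over the whole array 21.5% of probe sets were called, 13.9% lower and 7.64% higher. Among the 37233 probe sets above the Trpn controls 17.2% were lower. The median log2 fold change of the 15 was -0.51, against 0.064 over all 45037. The 15 belong to genes chosen with earlier results of these data known. Their contrasts with the whole array are therefore descriptive and are no test of enrichment. Arrays of the fractions did not overlap for 5 of the 15, all lower in CD34+ cells, where 6.86% of all probe sets were lower without overlap. The 7 were the probe sets of Pmaip1 and Eda2r, the brighter one of Plk2, all 3 of Ccng1 and 1 of Sesn2, whereas Mdm2, Trp53inp1 and Phlda3 had none past the threshold. Without CD34+ arrays 1, 3 and 5, 5 of the 15 were lower and 0 higher, where 8.22% of all probe sets were lower.

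**Figure D1:**
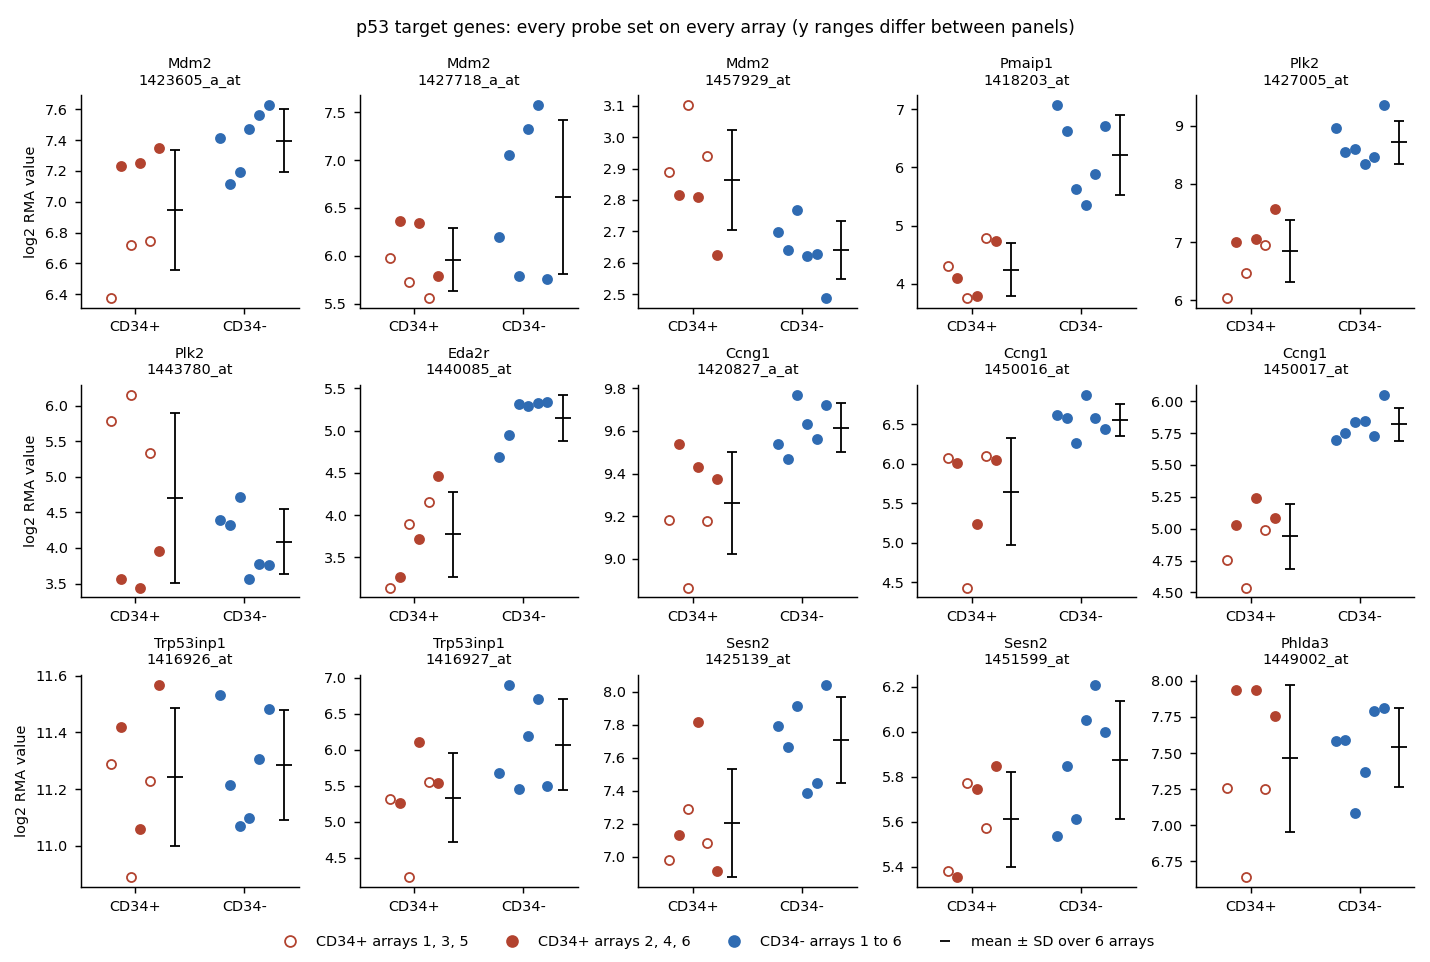
Each panel shows 1 probe set, with the log2 RMA value of every array on the y axis, CD34+ arrays in red (open for arrays 1, 3 and 5) beside CD34- arrays in blue, and the mean ± SD over 6 arrays as a bar. Pmaip1, Plk2 (1427005_at), Eda2r and 2 of the Ccng1 probe sets keep the fractions apart, while Plk2 (1443780_at) splits the CD34+ arrays into 5.34 to 6.15 on arrays 1, 3 and 5 and 3.44 to 3.96 on arrays 2, 4 and 6.

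Other cells of the skin moved with the fractions, and in bulk samples fewer cells of a type and less RNA per cell cannot be told apart. All 8 measured T cell markers were lower in CD34+ cells, with a list mean of 5.24 to 6.34 in CD34+ arrays and 7.08 to 8.16 in CD34- arrays. Cd3g, of the T cell receptor complex, differed by -3.29 on the log2 scale (limma adjusted p = 6.52e-06). All 11 measured markers of dividing cells were lower as well, at 6.00 to 6.86 in CD34+ arrays, against 7.56 to 8.28 in CD34- arrays, and the replication clamp gene Pcna differed by -1.84 (adjusted p = 3.41e-05). Of 8 Langerhans and myeloid markers 5 were lower (5.82 to 6.11 in CD34+ arrays, against 6.30 to 7.04 in CD34- arrays), and of 10 fibroblast markers 6 were higher (5.81 to 7.41 in CD34+ arrays, against 4.60 to 5.63 in CD34- arrays). Of 8 endothelial markers 1 was higher, and of 7 melanocyte markers 2 were higher and 1 lower. In the T cell, dividing cell, myeloid and fibroblast lists no marker's mean lay within the Trpn range in either fraction, while the endothelial receptor gene Tek was within it in both. The part of these cells in the lower Pmaip1, Plk2, Eda2r and Ccng1 was not tested.

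**Figure D2:**
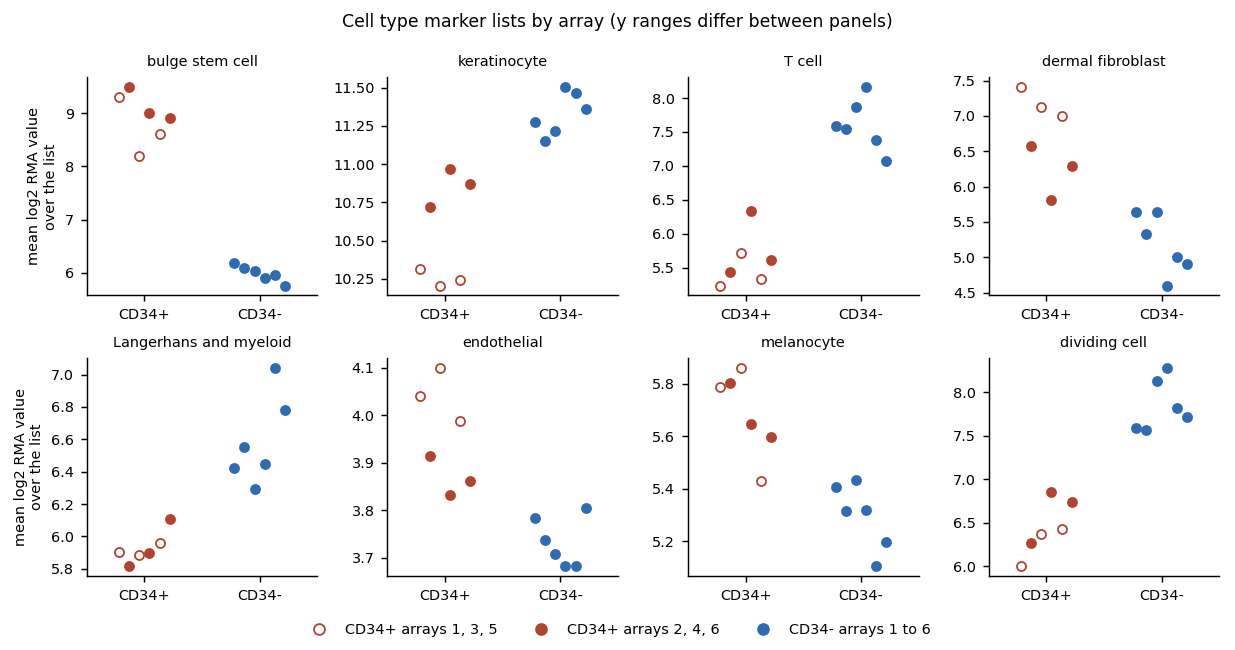
The y axis gives the mean log2 RMA value over each marker list on every array, with CD34+ arrays in red (open for arrays 1, 3 and 5) beside CD34- arrays in blue. The T cell and dividing cell lists are lower on all 6 CD34+ arrays, the bulge and fibroblast lists are higher, and the open points of the fibroblast panel lie at the top.

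The promoters of these genes were read for the p53 response element, a pair of like decamers whose consensus reads the same on both strands. The RefSeq promoter table (GRCm38.p6, 250 bases before to 50 after the start) held 6 of the 8 genes, namely Ccng1, Eda2r, Mdm2, Phlda3, Plk2 and Sesn2. A single decamer of the p53 consensus was found in 2 of the 6, Ccng1 and Mdm2, and in 8.36% of 32544 distinct promoter windows. The complete element of 2 adjoining decamers, with at most 1 mismatch, was found in Ccng1 alone among the 6 and in 22 of the 32544 windows. It lies 195 to 176 bases before the start of Ccng1, and the decamer of Mdm2 begins 186 bases before its start. The sequences below are those of the gene with the complete element, of the gene with a single decamer, and of Plk2, whose brighter probe set had a large difference and whose window held no match. Capitals mark the matches, and sequences run 5′ to 3′ on the strand of the gene.
Ccng1, chr11:40755237-40755536, minus strand: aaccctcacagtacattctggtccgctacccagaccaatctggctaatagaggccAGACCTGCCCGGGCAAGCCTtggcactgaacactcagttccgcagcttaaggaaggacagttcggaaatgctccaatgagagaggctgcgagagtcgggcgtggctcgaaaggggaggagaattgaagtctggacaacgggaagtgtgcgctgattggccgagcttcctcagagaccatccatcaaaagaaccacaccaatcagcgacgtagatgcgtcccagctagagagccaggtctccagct
Mdm2, chr10:117710709-117711008, minus strand: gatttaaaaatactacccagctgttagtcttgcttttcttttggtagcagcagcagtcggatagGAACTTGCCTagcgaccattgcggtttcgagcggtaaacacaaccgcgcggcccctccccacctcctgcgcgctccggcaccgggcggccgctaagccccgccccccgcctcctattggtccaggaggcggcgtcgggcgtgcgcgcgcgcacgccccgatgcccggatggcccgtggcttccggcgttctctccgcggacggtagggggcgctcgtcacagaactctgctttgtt
Plk2, chr13:110394794-110395093, plus strand: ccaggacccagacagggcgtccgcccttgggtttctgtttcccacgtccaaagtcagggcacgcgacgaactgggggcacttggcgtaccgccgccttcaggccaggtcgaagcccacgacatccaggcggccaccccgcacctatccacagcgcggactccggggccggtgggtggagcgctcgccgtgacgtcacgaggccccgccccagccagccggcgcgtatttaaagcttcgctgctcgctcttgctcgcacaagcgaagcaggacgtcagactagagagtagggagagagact

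A match is a description of the letters only, and p53 sites outside these 300 bases, such as those in first introns, were not searched.

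The feedback regulator Mdm2 did not pass the test by any of its 3 probe sets. The probe set with the highest level, 1423605_a_at, read 6.38, 6.99 and 7.35 (lowest, median and highest of 6) in CD34+ arrays, against 7.11, 7.44 and 7.63 in CD34- arrays. CD34+ arrays 1, 3 and 5 held the lowest values, at 6.38 to 6.74, and arrays 2, 4 and 6 lay within the CD34- range, so the fractions overlapped. The log2 fold change was -0.45 (95% interval -0.81 to -0.091, limma adjusted p = 0.0707), and -0.12 without arrays 1, 3 and 5 (adjusted p = 0.610). Averaging arrays 1-2, 3-4 and 5-6 first, as if each pair shared an RNA, brought the -0.45 past the threshold (adjusted p = 0.0344), and after a further quantile normalization it was -0.17 (adjusted p = 0.321).

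The other Mdm2 probe sets did not settle the direction. In CD34- arrays 1427718_a_at was split, with arrays 2, 4 and 5 at 7.06 to 7.57 and arrays 1, 3 and 6 at 5.76 to 6.20. All 6 CD34+ arrays read 5.56 to 6.37, near the lower CD34- arrays, and the log2 fold change was -0.65 (95% interval -1.33 to 0.018, adjusted p = 0.148). It passed when arrays 1-2, 3-4 and 5-6 were averaged first (adjusted p = 0.0148) and not when arrays 1-4, 2-5 and 3-6 were (adjusted p = 0.164). The remaining one, 1457929_at, read 2.62 to 3.10 in CD34+ and 2.49 to 2.77 in CD34- arrays, and 11 of its 12 values were no higher than the highest Trpn control. It gave a log2 fold change of 0.22 (limma adjusted p = 0.0923).

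Among the genes of cell death, Pmaip1 encodes NOXA, a BH3-only protein that binds and neutralises the survival factor MCL1. Its probe set 1418203_at read 4.30, 4.09, 3.76, 3.79, 4.78 and 4.74 in CD34+ arrays 1 to 6, against 7.07, 6.63, 5.62, 5.35, 5.89 and 6.70 in CD34- arrays 1 to 6. Every CD34+ array was below every CD34- array, and CD34+ arrays 1, 3 and 5 did not stand apart from the other CD34+ arrays. Pmaip1 averaged 4.24 ± 0.45 in CD34+ and 6.21 ± 0.68 in CD34- cells (SD, n = 6), so it was 3.91-fold lower in CD34+ cells. On the log2 scale it fell by 1.97 (SE 0.29, limma adjusted p = 0.000451), and fell by 2.002 without CD34+ arrays 1, 3 and 5 (adjusted p = 0.00499).

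Eda2r encodes XEDAR, a receptor of the TNF receptor family for the A2 form of ectodysplasin, a signal of skin appendage development. Its probe set 1440085_at read 3.14, 3.27, 3.89, 3.72, 4.16 and 4.46 in CD34+ arrays 1 to 6, against 4.69, 4.95, 5.32, 5.29, 5.33 and 5.34 in CD34- arrays 1 to 6. The fractions did not overlap, though CD34+ array 6 (4.46) and CD34- array 1 (4.69) came close. The mean was 3.77 ± 0.51 in CD34+ and 5.15 ± 0.27 in CD34- cells (SD, n = 6), a 2.60-fold lower value in CD34+ cells. Eda2r thus fell by 1.38 on the log2 scale (SE 0.21, limma adjusted p = 0.000533), and fell by 1.34 without CD34+ arrays 1, 3 and 5 (adjusted p = 0.00400).

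Plk2 encodes a polo-like kinase that acts in G1 and in centriole duplication. Its brighter probe set, 1427005_at, read 6.04, 6.995, 6.46, 7.06, 6.95 and 7.57 in CD34+ arrays 1 to 6, against 8.96, 8.55, 8.61, 8.35, 8.46 and 9.36 in CD34- arrays 1 to 6. The highest CD34+ array stayed below the lowest CD34- array. It averaged 6.85 ± 0.53 in CD34+ and 8.72 ± 0.38 in CD34- cells (SD, n = 6), 3.66-fold lower in CD34+ cells. The difference on the log2 scale was -1.87 (SE 0.24, limma adjusted p = 0.000140), and it was -1.51 without CD34+ arrays 1, 3 and 5 (adjusted p = 0.00132).

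The second Plk2 probe set, 1443780_at, which the annotation lists without a sequence record, behaved differently. It read 5.79, 3.57, 6.15, 3.44, 5.34 and 3.96 in CD34+ arrays 1 to 6, and 4.39, 4.32, 4.72, 3.56, 3.78 and 3.76 in CD34- arrays 1 to 6. CD34+ arrays 1, 3 and 5 were above all other arrays and CD34+ arrays 2, 4 and 6 fell within or just below the CD34- range. The log2 fold change was 0.62 (95% interval -0.36 to 1.597, limma adjusted p = 0.333), and -0.43 without arrays 1, 3 and 5 (adjusted p = 0.299). Averaging arrays 1-2, 3-4 and 5-6 first, which joins an odd with an even array each time, brought the 0.62 past the threshold (adjusted p = 0.0265).

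Ccng1 encodes cyclin G1, an atypical cyclin that recruits a protein phosphatase to MDM2. Its 3 probe sets come from the same sequence record and all 3 were lower in CD34+ cells, by differing amounts. Probe set 1450017_at read 4.75, 5.03, 4.54, 5.24, 4.99 and 5.08 in CD34+ arrays 1 to 6, against 5.70, 5.75, 5.83, 5.85, 5.73 and 6.05 in CD34- arrays 1 to 6. The fractions were parted by 0.46 or more in every pair of arrays, with a log2 fold change of -0.88 (SE 0.12, limma adjusted p = 0.000200), or 1.84-fold lower in CD34+ cells. Without CD34+ arrays 1, 3 and 5 it was -0.70 (adjusted p = 0.00104).

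Probe set 1450016_at of Ccng1 read 4.43, 6.03 and 6.09 (lowest, median and highest) in CD34+ arrays, against 6.26, 6.57 and 6.87 in CD34- arrays. It had no overlap, with CD34+ arrays 3 (4.43) and 4 (5.23) below the other CD34+ arrays. Its log2 fold change was -0.91 (SE 0.26, adjusted p = 0.0226). The call was lost with means of arrays 1-2, 3-4 and 5-6 (-0.91, adjusted p = 0.0743), after a further quantile normalization (-0.79, adjusted p = 0.0790) and without CD34- array 4 (-0.85, adjusted p = 0.0537). It held without CD34+ arrays 1, 3 and 5 (-0.79, adjusted p = 0.0155). The brightest Ccng1 probe set, 1420827_a_at, read 8.86, 9.28 and 9.54 in CD34+ arrays and 9.47, 9.60 and 9.77 in CD34- arrays. Its fractions overlapped, and the log2 fold change was -0.35 (SE 0.11, adjusted p = 0.0390). That call held in 11 of 22 alternatives, and the value was -0.073 after a further quantile normalization (adjusted p = 0.540) and -0.17 without CD34+ arrays 1, 3 and 5 (0.279).

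Sesn2 and Trp53inp1 are targets of the antioxidant and autophagy side of the p53 response. Sesn2 encodes sestrin 2, a stress protein that senses leucine and restrains mTORC1. Its probe set 1425139_at read 6.92, 7.11 and 7.82 (lowest, median and highest) in CD34+ arrays, against 7.38, 7.73 and 8.04 in CD34- arrays. CD34+ array 4 (7.82) was the only CD34+ array within the CD34- range. Sesn2 was 1.42-fold lower in CD34+ cells by this probe set (log2 fold change -0.51, SE 0.16, limma adjusted p = 0.0376). The call was lost in 12 of 22 alternatives, among them the set without CD34+ arrays 1, 3 and 5 (-0.42, adjusted p = 0.218) and a further quantile normalization (-0.20, adjusted p = 0.464). Without CD34+ array 4 the value was -0.63 (adjusted p = 0.00327). The other probe set of the same sequence record, 1451599_at, read 5.35 to 5.85 in CD34+ and 5.54 to 6.21 in CD34- arrays (log2 fold change -0.26, adjusted p = 0.169).

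Trp53inp1 encodes a stress protein that aids p53 phosphorylation and takes part in autophagy. Its bright probe set 1416926_at read 10.89 to 11.57 in CD34+ and 11.07 to 11.53 in CD34- arrays, ranges that lay almost on each other. Its log2 fold change of -0.042 had a 95% interval of -0.31 to 0.23 (limma adjusted p = 0.826), and its sign changed with a further quantile normalization (0.17). The probe set 1416927_at of the same record read 4.23, 5.43 and 6.11 (lowest, median and highest) in CD34+ arrays, against 5.46, 5.93 and 6.90 in CD34- arrays. CD34- arrays 2 and 5 (6.90 and 6.70) and CD34+ array 3 (4.23) held the extremes, and the log2 fold change was -0.74 (95% interval -1.42 to -0.055, adjusted p = 0.113). Averaging arrays 1-2, 3-4 and 5-6 first brought it past the threshold (adjusted p = 0.0133), and averaging arrays 1-4, 2-5 and 3-6 did not (adjusted p = 0.119). Without CD34+ arrays 1, 3 and 5 it was -0.43 (adjusted p = 0.475).

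Phlda3 encodes a small pleckstrin-homology protein that competes with AKT for membrane lipids. Its probe set 1449002_at read 7.26, 7.94, 6.64, 7.94, 7.25 and 7.76 in CD34+ arrays 1 to 6, and 7.58, 7.59, 7.09, 7.37, 7.79 and 7.81 in CD34- arrays 1 to 6. CD34+ arrays 1, 3 and 5 lay below arrays 2, 4 and 6, and the CD34+ range covered the whole CD34- range. The log2 fold change was -0.076 (95% interval -0.54 to 0.38, limma adjusted p = 0.811), and it was 0.34 without arrays 1, 3 and 5 (adjusted p = 0.182) and 0.21 after a further quantile normalization.

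**Figure D3:**
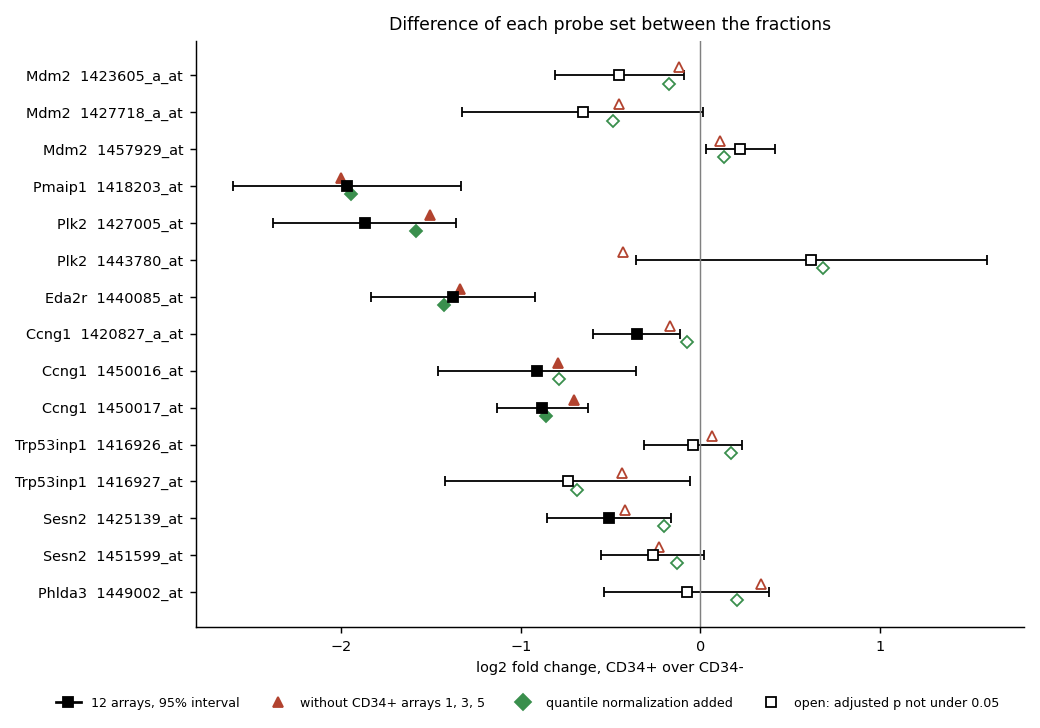
The log2 fold change of CD34+ over CD34- cells is on the x axis for each of the 15 probe sets, with limma's 95% interval over 12 arrays (squares), the value without CD34+ arrays 1, 3 and 5 (triangles) and the value after a further quantile normalization (diamonds), filled where the adjusted p is under 0.05. Pmaip1, Plk2 (1427005_at), Eda2r and Ccng1 (1450017_at) stay filled and between -0.70 and -2.002 in all 3, and Phlda3 and Trp53inp1 (1416926_at) lie on either side of 0.

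Centring each array on its median brought the median over all probe sets to -0.038, a shift of -0.10, and left 7 members lower, where 16.6% of all probe sets were lower. A further quantile normalization left 4, where 12.0% of all probe sets were lower, and these were Pmaip1, Plk2 (1427005_at), Eda2r and Ccng1 (1450017_at). These 4 probe sets were lower in all alternatives that included them, with adjusted p up to 0.0101 for Pmaip1, 0.00151 for Plk2, 0.0130 for Eda2r and 0.00137 for Ccng1.

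Other genes of the pathway were followed in 5 lists, with each gene given by its probe set of highest mean. Of 89 measured genes 20 were lower and 4 higher in CD34+ cells, and over all 18193 genes 25.2% were called, 17.5% lower and 7.73% higher. The median log2 fold change of the 89 was -0.10, against 0.040 over all genes. The lists too were chosen with earlier results known, so their contrasts with all genes are descriptive. The balance depended on the scaling and on CD34+ arrays 1, 3 and 5. After a further quantile normalization 14 of the 89 were lower and 10 higher, against 13.3% and 11.02% of all genes. Without those 3 arrays 14 were lower and 6 higher, against 9.89% and 8.39% of all genes. After median centring 27 were lower and 2 higher, against 20.1% and 4.83%. The changes given below for list genes are log2 fold changes.

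Of 20 other targets that act in arrest and DNA repair, 5 were lower and 0 higher in CD34+ cells, with a median of -0.15. Sfn, which encodes 14-3-3 sigma, a G2 arrest protein of keratinocytes, averaged 6.26 ± 0.63 in the CD34+ and 7.87 ± 0.62 in the CD34- fraction (SD, n = 6) and fell by 1.61 (SE 0.32, limma adjusted p = 0.00268). The antiproliferative gene Btg2 fell by 1.23 (adjusted p = 0.0267), and its dimmer probe set was at -1.82 (adjusted p = 0.00249). Pml, of the nuclear bodies, fell by 0.64 (adjusted p = 0.0297). Cdkn1a, which encodes the cyclin-dependent kinase inhibitor p21, read 9.66, 10.6 and 11.1 (lowest, median and highest) in CD34+ arrays, against 10.6, 11.4 and 11.7 in CD34- arrays. Its log2 fold change was -0.76 (SE 0.25, adjusted p = 0.0458), its other probe set was at -1.42 (adjusted p = 0.00403), and the call on the brighter one held in 11 of 22 alternatives. With CD34+ arrays 1, 3 and 5 left out, Btg2 stayed near its size (-1.11, adjusted p = 0.150), whereas Cdkn1a was at -0.29 (adjusted p = 0.411) and Pml at -0.27 (adjusted p = 0.273). In that fit 3 of the list were lower and 1 higher, but of the 5 called lower over 12 arrays only Sfn kept its call (-1.07, adjusted p = 0.0431). After a further quantile normalization 2 of the list were lower and 1 higher.

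Of 21 measured genes listed as targets of cell death and metabolism 2 were lower and 2 higher, with a median of -0.056. Trp53inp2, the paralog of Trp53inp1 that acts in autophagy, is also counted among the paralogs below. It averaged 7.16 ± 0.62 in the CD34+ and 8.56 ± 0.20 in the CD34- fraction (SD, n = 6) and fell by 1.41 (SE 0.24, limma adjusted p = 0.00100). The apoptosis nuclease Aen fell by 0.98 (SE 0.12, adjusted p = 0.000118), although its 3 dimmer probe sets did not pass. Dram1, a lysosomal membrane protein of p53-driven autophagy, went the other way, with 7.86, 8.28 and 8.58 (lowest, median and highest) in CD34+ arrays, against 6.84, 7.14 and 7.54 in CD34- arrays. Its log2 fold change of 1.07 (SE 0.16, adjusted p = 0.000371) was past the threshold in all 22 alternatives, and its fractions did not overlap. Trp53i11 was higher by 0.29 (adjusted p = 0.0399), a call that held in 8 of 22 alternatives. The remaining 17 did not pass, among them Perp (-0.056), the desmosomal target of p53 and p63, and Sesn1 (0.019).

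Of 23 measured regulators and family members 7 were lower and 0 higher in CD34+ cells, with a median of -0.16. After a further quantile normalization 5 were lower and 4 higher. The checkpoint kinase gene Chek1 fell by 1.09 (limma adjusted p = 0.0160), a call that held in 20 of 22 alternatives. It was lost without CD34+ arrays 1, 3 and 5 (-0.93, adjusted p = 0.0984) and with means of arrays 1-2, 3-4 and 5-6 (adjusted p = 0.0652). Trp53bp2, which encodes the p53-binding protein ASPP2, fell by 1.05 (adjusted p = 0.000727) and the ubiquitin ligase gene Cop1 by 0.70 (adjusted p = 0.00147). The nucleolar protein gene Nop53 fell by 0.77 (adjusted p = 0.00527). The dimmer Nop53 probe sets were at -1.40 (adjusted p = 0.000302) and -0.33 (adjusted p = 0.148). Mdm4, the partner of Mdm2 in holding p53 in check, read 6.86 to 8.44 in CD34+ and 6.96 to 7.64 in CD34- arrays, and its log2 fold change was 0.044 (95% interval -0.52 to 0.60, adjusted p = 0.914). Trp63 was high in both fractions, at 11.6 ± 0.23 in the CD34+ and 12.0 ± 0.21 in the CD34- fraction (SD, n = 6). By its brightest probe set it was lower in CD34+ cells (log2 fold change -0.42, adjusted p = 0.0311), a call that held in 14 of 22 alternatives. The call was lost after a further quantile normalization (-0.25, adjusted p = 0.150) and without CD34+ arrays 1, 3 and 5 (-0.36, adjusted p = 0.126). The next brightest Trp63 probe set was at 0.25 (adjusted p = 0.163). The dim ones were at -0.88 (adjusted p = 0.00684) and -0.20 (adjusted p = 0.0941). Trp73 gave -0.082 (95% interval -0.54 to 0.38, adjusted p = 0.796). Without CD34+ arrays 1, 3 and 5 the list's median was 0.11, and 3 genes were lower.

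In the BCL2 family, whose proteins decide the fate of mitochondria in apoptosis and of which NOXA is a distant member, 2 of 18 measured genes were lower and 0 higher, with a median of 0.073. The lower ones were Bcl2l13 (-0.998, limma adjusted p = 0.00274) and Bnip3 (-0.66, adjusted p = 0.00357), both of which act in the removal of mitochondria. The dimmer Bcl2l13 probe set was at -1.68 (adjusted p = 0.000340). Mcl1, the partner of NOXA, was at -0.034 by its brightest probe set (adjusted p = 0.884), while 3 of its 5 other probe sets were lower and 0 higher. The BH3-only target Bbc3 was at 0.24 (adjusted p = 0.129). The split was 1 lower and 1 higher after a further quantile normalization, and 2 lower and 2 higher without CD34+ arrays 1, 3 and 5.

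Among 16 paralogs of the members 6 were lower and 2 higher, with a median of -0.031. Tnfrsf19 (TROY), a receptor related to XEDAR, averaged 8.11 ± 1.18 in the CD34+ and 10.4 ± 0.35 in the CD34- fraction (SD, n = 6) and fell by 2.29 (SE 0.44, limma adjusted p = 0.00236). Its dimmer probe sets were at -1.11 (adjusted p = 0.0130) and -0.26 (adjusted p = 0.112). Edar, the receptor for the other form of ectodysplasin, was at 0.23 (adjusted p = 0.293). Its values, 3.03 to 3.99 in CD34+ and 3.10 to 3.49 in CD34- arrays, began just above the highest Trpn control (2.95). The polo-like kinase genes of mitosis and centriole duplication were lower, with log2 fold changes of -1.59 for Plk4 (adjusted p = 0.000135) and -0.92 for Plk1 (adjusted p = 0.000456), and Plk3 was at -0.15 (adjusted p = 0.583). The relatives of Phlda3 were higher, Phlda1 by 1.17 (SE 0.36, adjusted p = 0.0348) and Phlda2 by 0.71 (SE 0.14, adjusted p = 0.00265). Phlda1 ranged over 5.45 to 7.57 in CD34+ arrays, against 4.49 to 5.63 in CD34- arrays, and its call held in 13 of 22 alternatives.

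**Figure D4:**
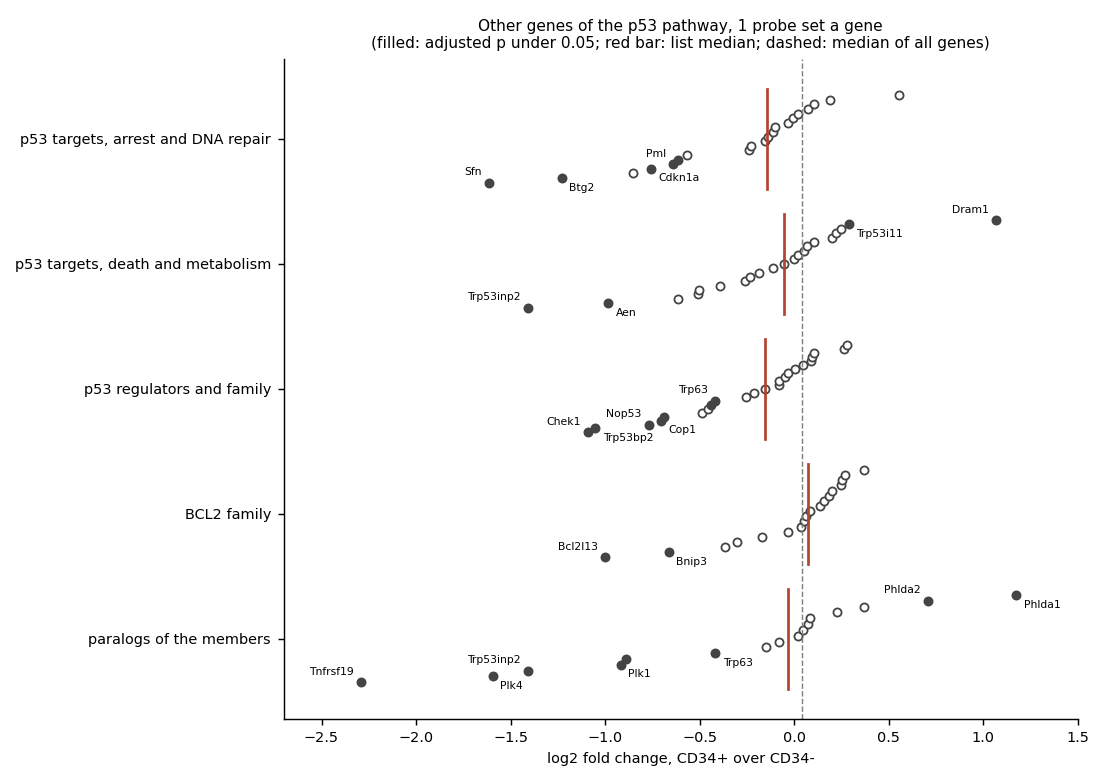
Each point is a gene of 1 of the 5 lists, placed by its log2 fold change of CD34+ over CD34- cells on the x axis and filled where the limma adjusted p is under 0.05, with the list median as a red bar and the median of all genes (0.040) as a dashed line. Most points lie near 0, Dram1 (1.07) and Phlda1 (1.17) lie to the right, and Tnfrsf19 (-2.29) lies to the left.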

How the data were processed

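RNA of 6 CD34+ and 6 CD34- arrays was compared. Expression was deposited on the log2 scale, computed by the authors with RMA per the submitters' processing notes; the version, and whether all 12 arrays were normalized together, is not given in the sources used here. Of 45101 probe sets 64 controls were set aside. GEO's platform annotation tied 34945 probe sets to 1 gene (18193 genes), 932 to several, and 9160 stayed unnamed here. Limma 3.58.1 (R 4.3.3, lmFit and eBayes, two-sided) was fitted over all 45037 probe sets with Benjamini-Hochberg adjustment, threshold 0.05, positive values meaning higher in CD34+ cells. Lists use the probe set with the highest mean per gene. Members and lists were chosen with earlier results of these data known. Named genes are all members, Cd34, Cdkn1a, Mdm4, Trp63, Trp73 and up to 4 genes that rose and 4 that fell per pathway list, with Cd3g and Pcna from the marker lists; Perp, Sesn1, Mcl1, Bbc3, Edar, Plk3 and Tek were added after their values were seen. A planned search for genes patterned like Trp53 was not run, as no probe set was tied to it here. Tested on simulated data (45037 probe sets), the fit recovered 26%, 76% and 98% of rises of 0.5, 1 and 2 on the log2 scale. It recovered 74% of falls of 1. The simulated arrays were independent, and only 50 probe sets changed at each size. In the data arrays share RNA and far more probe sets were called, so these shares need not hold there. The number of arrays limits the precision. The 22 alternatives cover scaling, array weights, assumed RNA pairs, title numbers as a block and left-out arrays. The true pairs are unknown, and both assumed groupings join odd with even arrays. Odd CD34+ arrays correlated best with odd ones, and even with even. Averaging consecutive arrays raised the calls over all probe sets from 9704 to 10560, and the other grouping to 13758. Consecutive arrays taken as a random block had a consensus correlation of -0.14. Whether a call holds with the true pairs was not tested.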

Additional observations from a re-analysis of the deposited data

How the results depend on the processing

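Across 22 alternatives, Cd34, Pmaip1, Eda2r and Plk2 (1427005_at) kept their direction and call, as did Ccng1 (1450017_at) in the 21 that included it. None of these alternatives uses known RNA pairs, so whether the calls hold with the true pairs was not tested. The number of member probe sets called was 7, and 4 after a further quantile normalization, all lower in CD34+ cells. In other alternatives 1 member was called higher. It was Plk2 (1443780_at) with means of arrays 1-2, 3-4 and 5-6 or of arrays 1-4, 2-5 and 3-6. Without CD34+ array 6 it was Mdm2 (1457929_at, limma adjusted p = 0.0449). Leaving out 1 array at a time gave 5 to 9 member calls, 18 to 29 calls in the pathway lists, and 7439 to 12318 calls over all probe sets. With 1 probe set a gene, 4750 were called among 18193, against 9704 among 45037 probe sets, since fewer were tested. The share of lower calls was 64.6% as deposited, 58.3% after a further quantile normalization, 78.9% after median centring and 52.8% without CD34+ arrays 1, 3 and 5. The sign of Plk2 (1443780_at) changed without those 3 arrays (-0.43). Trp53inp1 (1416926_at) changed sign with quantile normalization (0.17), without the 3 arrays (0.065), with array weights (0.055), without CD34+ array 3 (0.029) and without CD34- array 1 (0.0082), its range on leaving out 1 array being -0.11 to 0.029. Phlda3 changed sign with quantile normalization (0.21), without the 3 arrays (0.34), with array weights (0.021) and without CD34+ array 3 (0.089), with a range of -0.17 to 0.089. The cause was not tested. The replicate block, which takes the title number as shared, called 10209 probe sets and 6 members. It ended the calls of Ccng1 (1420827_a_at, limma adjusted p = 0.0755) and Sesn2 (1425139_at, 0.0741) and called Trp53inp1 (1416927_at, 0.0446). Deviations of same-numbered arrays from their fraction's mean correlated at -0.24 to 0.49, and 3 of the 6 CD34+ arrays correlated best with their own number, so the numbers are not taken as pairs.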
